A study of Mus musculus with 8 samples.

Results

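Oxidative phosphorylation subunits were followed across 4 groups of memory CD4 T cells. Members were the genes whose mouse symbol starts with Nduf and a subunit letter and number, is Sdha, Sdhb, Sdhc or Sdhd, or starts with Uqcr, with Cox and a number from 4 to 8, or with Atp5. Of 18193 genes with a probe set annotated to 1 symbol alone, 81 were members, measured by 164 probe sets. By symbol they fell to complex I (35 genes), complex II (4), complex III (8), complex IV (17) and complex V (17). Ndufa4 and Ndufa4l2 were counted under complex I by symbol, although the NDUFA4 protein is now placed in complex IV. Each member was represented by its brightest probe set, and 76 of the 81 were bright enough to be tested, among 11217 genes tested.

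The cells were polyclonal memory T follicular helper (Tfh) and T helper 1 (Th1) cells, sorted from the spleens of mice at day 60 after infection with LCMV Armstrong, a virus strain that mice clear. The 4 groups were Rictor-null Tfh, WT Tfh, Rictor-null Th1 and WT Th1 cells. Each group had 2 arrays, described as biological replicates, with the RNA of no fewer than 10 mice pooled on every array. The labels give no strain, sex, age or sort gate, and neither the allele nor any Cre driver by which Rictor was deleted. In which other cells it was lost is thus unstated in the sources used here.

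The respiratory chain lies in the inner mitochondrial membrane. Complex I takes electrons from NADH, complex II takes them from succinate, complex III passes them from ubiquinol to cytochrome c, and complex IV hands them to oxygen. Complexes I, III and IV pump protons as they do so, and complex V, the ATP synthase, lets the protons back to make ATP. Memory T cells are known for their reliance on this pathway. Rictor belongs to mTOR complex 2, the form of the mTOR kinase that phosphorylates AKT.

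Values are deposited probe set signals on a linear intensity scale. Differences are given as log2 of the signal plus 32, as the tested mean minus the other, ± the standard error (SE) of the limma fit with 2 arrays per group. Rises and falls are differences whose limma p, adjusted by Benjamini-Hochberg over all 11217 genes, was under 0.05. The median member signal per array lay between 1145 and 1282, against array medians of 35.7 to 37.7 over all probe sets. Rictor itself was measured by 5 probe sets. The brightest gave 563 and 576 in Rictor-null Tfh cells, against 560 and 563 in WT Tfh cells, 493 and 474 in Rictor-null Th1 cells, and 468 and 556 in WT Th1 cells. Its difference did not pass in Tfh cells (0.02 ± 0.074, adjusted p = 0.887) or in Th1 cells (-0.07 ± 0.074, adjusted p = 0.585), and since the sources used here do not say which exons were deleted, its probe sets check nothing about the labels. Signals of 6 genes of CD4 T cell identity summed to 17094 to 18274 on every array. The 8 Tfh markers summed to 5357 and 5517 in Rictor-null Tfh cells, against 3518 and 3445 in WT Tfh cells, 3809 and 3974 in Rictor-null Th1 cells, and 2864 and 2764 in WT Th1 cells. Icos was the largest part of these sums, with means of 2750, 2099, 2502 and 1943 in that order. Cxcr5 (269, 181, 51.4 and 51.2) and Bcl6 (189, 141, 92.5 and 92.2) were higher in both Tfh groups than in both Th1 groups. Within each genotype Cd200 alone of the 8 was higher in Th1 cells (286, 214, 409 and 236). The 7 Th1 markers with a probe set summed to 8953 and 9034 in Rictor-null Tfh cells, against 9630 and 9641 in WT Tfh cells, 8825 and 8868 in Rictor-null Th1 cells, and 9217 and 9768 in WT Th1 cells, so that Tfh and Th1 arrays overlapped. Tbx21, which encodes the Th1 factor T-bet, averaged 452, 426, 455 and 448 in these 4 groups, and Il12rb2 was below the array median on every array. Of 8 B cell markers Ighm, Cd22 and Cd79b were above the array median on 2 or more arrays, and Cd79a, Ms4a1, Pax5, Blnk and Ebf1 on none. The B cell sum was 2680 and 3033 in Rictor-null Tfh cells, against 2473 and 2416 in WT Tfh cells, 2081 and 2021 in Rictor-null Th1 cells, and 2628 and 2478 in WT Th1 cells. Ighm, the heavy chain of IgM, made up most of it, with means of 2375 in Rictor-null Tfh cells, against 1952 in WT Tfh cells, and 1729 in Rictor-null Th1 cells, against 2161 in WT Th1 cells. Cd22 was lower with Rictor-null in both cell types (315 against 345, and 148 against 234) and Cd79b was higher in both (55.9 against 39.9, and 74.1 against 49.7). The part of these markers in the results was not tested. Sums were 91.9 to 106 for 2 CD8 genes, 221 to 319 for 9 myeloid genes, 71.7 to 91.7 for 4 NK cell genes and 48.7 to 64.1 for 3 erythroid genes. In the order used for Icos, means were 83.3, 56.2, 39.8 and 35.6 for the myeloid gene Cd68. Cd68 rose in Rictor-null Tfh cells (0.38, adjusted p = 0.0102). It was also higher in Tfh than in Th1 cells (0.68 with Rictor-null, 0.38 in WT, both passing). Means of Cd8b1 were 60.4, 44.3, 54.9 and 55.0, and it rose in Rictor-null Tfh cells (0.28, adjusted p = 0.0110). Cd8a ran the other way in Tfh cells (44.2 against 48.3). The part of these genes was also not tested. In bulk samples such as these, a change in the share of cells of a type and a change in RNA per cell cannot be told apart.

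Setting Rictor-null against WT Tfh cells asks what the loss of this protein goes with in the follicular helper lineage. Of 76 members, 3 rose and 1 fell: the complex I genes Ndufs8 and Ndufb7 and the complex III gene Uqcr11 rose, and the complex IV gene Cox7c fell. That is a smaller share than over all genes, of which 13.6% were called (11.3% rose and 2.28% fell). Changes were small. No member differed by more than 0.27 in either direction, the 95% interval of every one of the 76 lay within 1.5-fold, as it did for 96.1% of all genes, and that of 60 lay within 1.25-fold.

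Although few members passed the test, most lay above 0. The difference was positive for 57 of 76 members (75.0%), against 60.7% of all genes, with a median of 0.07 against 0.04. Both Rictor-null arrays lay above both WT arrays for 42 members and below them for 8, against 39.9% and 19.7% of all genes. At an unadjusted p under 0.05 there were 13 members (17.1%), against 30.3% of all genes. Under quantile normalization the median of members was 0.03 and that of all genes -0.01, with 49 of 76 members above 0. Quantile normalization also turned the split of calls to 1 rise and 1 fall among members, and over all genes to 743 rises and 433 falls, against 1270 rises and 256 falls without it.

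**Figure D1:**
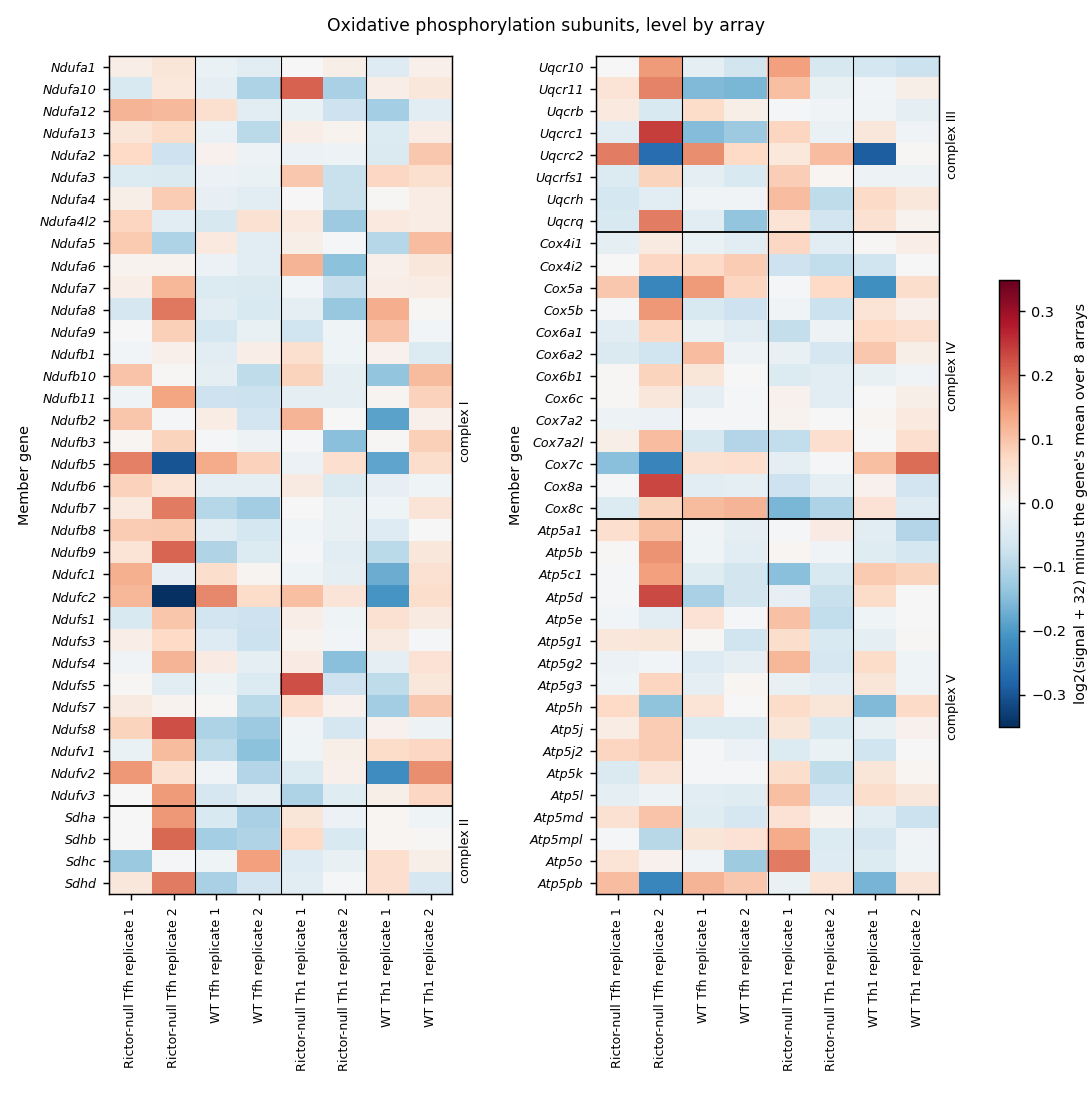
Level of each of the 76 members tested (rows, by complex) on each of the 8 arrays (columns), as log2(signal + 32) minus the gene's mean over the 8 arrays, from -0.35 (blue) to 0.35 (red). Rictor-null Tfh replicate 2 holds both the reddest and the bluest cells, and the WT Tfh columns are mostly pale blue.

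In complex I, 29 of 34 members tested lay above 0, with a median of 0.09, and 23 did after quantile normalization. Ndufs8, which carries iron-sulfur clusters on the electron path of complex I, had signals of 1595 and 1769 in Rictor-null Tfh cells, against 1398 and 1379 in WT Tfh cells. Both Rictor-null arrays were above every array of the other 3 groups, since Th1 cells gave 1496 and 1447 in Rictor-null and 1526 and 1489 in WT cells. Ndufs8 rose by 0.27 ± 0.063 (1.20-fold, adjusted p = 0.0194). Ndufb7, an accessory subunit, had 1660 and 1845 in Rictor-null Tfh cells, against 1512 and 1488 in WT Tfh cells. The groups did not overlap, and it rose by 0.22 ± 0.064 (adjusted p = 0.0458). Among the members that did not pass, Ndufb9 gave 0.20 (adjusted p = 0.0834) and Ndufv1, the flavoprotein that accepts electrons from NADH, gave 0.16 (adjusted p = 0.113). At the other end, Ndufc2 gave -0.24 and Ndufb5 -0.17, both with a wide spread between the Rictor-null arrays that is described further down.

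Complex II had the highest median of the 5 complexes, 0.18, over 4 genes, none of which passed. Sdhb, the iron-sulfur subunit, had 1016 and 1174 in Rictor-null Tfh cells, against 934 and 944 in WT Tfh cells (0.21 ± 0.074, adjusted p = 0.0826). Sdhd, a membrane anchor, had 544 and 604 in Rictor-null Tfh cells, against 486 and 504 in WT Tfh cells (0.20, adjusted p = 0.0737). Sdha, the flavoprotein that oxidises succinate, had 751 and 837 in Rictor-null Tfh cells, against 721 and 691 in WT Tfh cells (0.16, adjusted p = 0.126). For these 3 genes the Rictor-null arrays lay above both WT arrays, and replicate 2 was the higher of the pair each time. Sdhc, the other anchor, had 167 and 185 in Rictor-null Tfh cells, against 183 and 208 in WT Tfh cells, and so ran the other way with overlapping arrays (-0.13, adjusted p = 0.224).

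In complex III, 5 of 8 members lay above 0, with a median of 0.09. Uqcr11, a small subunit of the complex, had 662 and 725 in Rictor-null Tfh cells, against 571 and 569 in WT Tfh cells. Th1 cells gave 690 and 627 in Rictor-null and 634 and 648 in WT cells, all above the WT Tfh arrays and overlapping the Rictor-null Tfh ones. Uqcr11 rose by 0.27 ± 0.066 (1.20-fold, adjusted p = 0.0238). Uqcrc1, a core protein, had 590 and 724 in Rictor-null Tfh cells, against 543 and 553 in WT Tfh cells, and did not pass (0.24 ± 0.084, adjusted p = 0.0832).

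Complex IV stood closest to 0, with 7 of 13 members above it and a median of 0.02. The members below 0 included Cox4i2, Cox6a2 and Cox8c (-0.04, -0.11 and -0.10), forms known from certain tissues. Their mean signals were low, at 35.1, 63.6 and 167, and they weigh on this count and median. Cox7c, a small accessory subunit, had 565 and 531 in Rictor-null Tfh cells, against 654 and 656 in WT Tfh cells. The Rictor-null Tfh values were the lowest of its 8 signals, with 614 and 627 in Rictor-null and 679 and 725 in WT Th1 cells. It fell by 0.24 ± 0.059 on the log2 scale (1.18-fold lower, adjusted p = 0.0228). Cox5b, another nuclear-encoded subunit, gave 0.14 and did not pass (adjusted p = 0.186).

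In complex V, 13 of 17 members lay above 0, with a median of 0.07, and none passed. Atp5d, the delta subunit of the central stalk, came nearest. It had 3172 and 3746 in Rictor-null Tfh cells, against 2942 and 3049 in WT Tfh cells (0.20 ± 0.077, adjusted p = 0.107). In the plot of differences by complex, the median of complex II lay above the upper quartile of all genes, which was 0.14, and those of the other complexes lay within the middle quartiles.

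**Figure D2:**
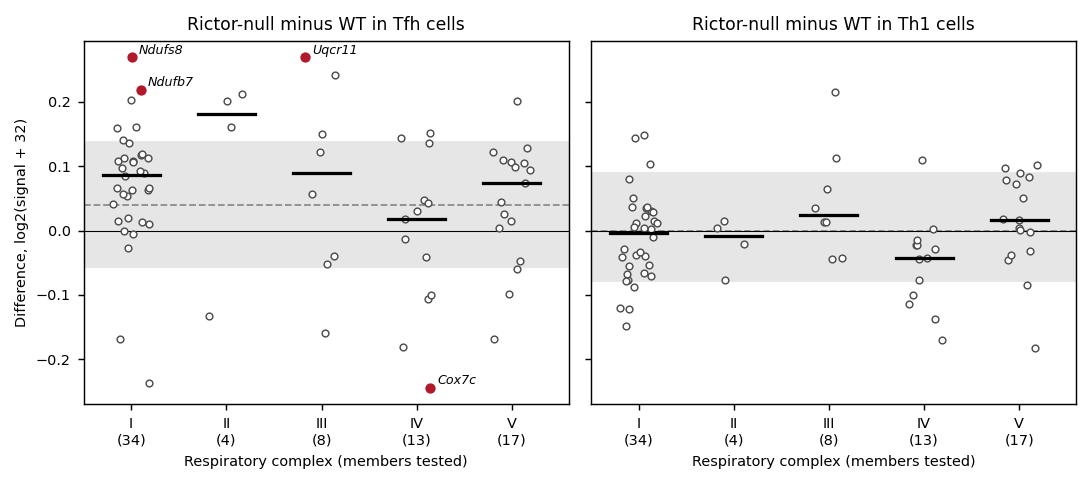
Difference between Rictor-null and WT cells in log2(signal + 32) for each member, by complex, in Tfh cells (left) and in Th1 cells (right), with the number of members tested under each complex. Filled points have an adjusted p under 0.05, black bars are complex medians, the grey band spans the middle quartiles of all 11217 genes and the dashed line is their median, which is 0.04 in Tfh cells. All 4 called members are in the Tfh panel.

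**Figure D3:**
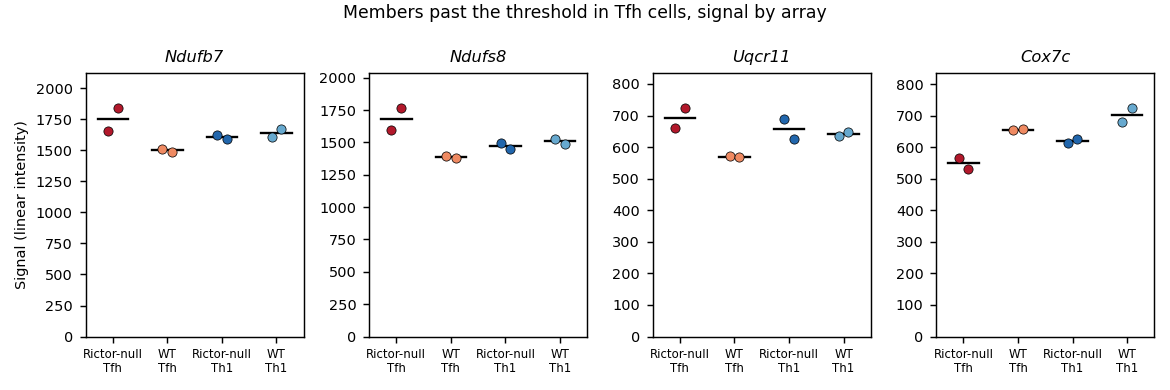
Signal on each array for the 4 members called in Tfh cells, on linear axes that start at 0, with a bar at each group's mean. The Rictor-null Tfh points lie above the WT Tfh points for Ndufb7, Ndufs8 and Uqcr11 and below them for Cox7c.

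Which members passed depended on single arrays, but a fit without 1 array leaves its group with 1 array and no spread of its own. Calls gained or lost in such a fit thus cannot be put down to that array's values alone, and their counts are not compared. The fits left out, in this order, Rictor-null Tfh replicate 1, Rictor-null Tfh replicate 2, WT Tfh replicate 1 and WT Tfh replicate 2. The members' median stayed positive in all 4 of these fits, at 0.09, 0.05, 0.09 and 0.06. The complex medians moved with them. That of complex II was 0.25 without Rictor-null Tfh replicate 1 and 0.10 without replicate 2, and that of complex III was 0.16 and 0.04. Complex IV turned to -0.01 with 4 of 13 members above 0 without Rictor-null Tfh replicate 2, and to -0.00 with 6 above 0 without the second WT Tfh array, while that of complex V was 0.04 without either of these arrays. The calls of Ndufs8, Uqcr11 and Cox7c each ended without any one of those last 3 arrays (adjusted p between 0.106 and 0.152), and that of Ndufb7 without any single array but Rictor-null Tfh replicate 1 (adjusted p between 0.0592 and 0.238).

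The promoters of the 4 called members are shown because these genes passed the threshold in Tfh cells. Each runs from 250 bases before to 50 bases after the gene's start, is given 5′ to 3′ on the gene's strand, and comes from RefSeq on GRCm38.p6. Capitals mark matches to cores of factors known to bind promoters of respiratory genes, namely GCGCATGC for NRF1, CCGGAAGT for ETS factors including GABPA, AAGATGGCG for YY1 and TCAAGGTCA for ESRRA, searched on both strands. Uqcr11 lies at chr10:80406772-80407071 on the minus strand, Ndufs8 at chr19:3912725-3913024 on the minus strand, Ndufb7 at chr8:83566508-83566807 on the plus strand and Cox7c at chr13:86046746-86047045 on the minus strand.
Uqcr11: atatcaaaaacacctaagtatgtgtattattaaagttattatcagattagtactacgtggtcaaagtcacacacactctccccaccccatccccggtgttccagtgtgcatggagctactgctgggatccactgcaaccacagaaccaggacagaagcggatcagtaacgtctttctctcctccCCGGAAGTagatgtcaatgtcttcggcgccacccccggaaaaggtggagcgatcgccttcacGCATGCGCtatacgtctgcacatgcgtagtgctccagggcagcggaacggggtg
Ndufs8: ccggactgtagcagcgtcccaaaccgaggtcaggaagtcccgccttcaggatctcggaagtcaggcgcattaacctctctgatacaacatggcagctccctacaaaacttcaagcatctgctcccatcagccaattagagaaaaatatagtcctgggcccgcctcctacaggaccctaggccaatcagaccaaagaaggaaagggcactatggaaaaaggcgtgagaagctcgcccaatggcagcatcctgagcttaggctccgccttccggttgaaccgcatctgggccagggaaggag
Ndufb7: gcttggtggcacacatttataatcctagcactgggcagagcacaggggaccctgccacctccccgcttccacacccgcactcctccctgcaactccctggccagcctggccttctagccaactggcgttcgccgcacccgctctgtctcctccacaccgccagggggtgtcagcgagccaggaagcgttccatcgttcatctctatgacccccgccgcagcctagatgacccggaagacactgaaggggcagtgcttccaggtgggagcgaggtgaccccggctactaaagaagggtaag
Cox7c: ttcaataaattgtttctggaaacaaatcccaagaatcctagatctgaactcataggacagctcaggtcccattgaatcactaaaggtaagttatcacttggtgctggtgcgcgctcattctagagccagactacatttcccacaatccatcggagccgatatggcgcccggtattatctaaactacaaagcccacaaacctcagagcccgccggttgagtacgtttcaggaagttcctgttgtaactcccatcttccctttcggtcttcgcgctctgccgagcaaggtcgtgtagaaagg
The Uqcr11 window holds an ETS core on the gene's strand and an NRF1 core on the opposite strand, and the other 3 windows hold none of the 4 letter strings. Over the 66 members with a promoter in the table, 21 (31.8%) held at least 1 of the 4 cores, against 11.4% of 17492 protein-coding genes. The NRF1 core was in 9 members (13.6%, against 3.94% of genes), the YY1 core in 6 (9.09%, against 2.14%), the ETS core in 5 (7.58%, against 5.69%) and the ESRRA element in 2 (3.03%, against 0.377%). The ESRRA matches were in Sdhd and Atp5g3. The NRF1 core overlaps its own reverse complement, so 1 site can match on both strands. Median GC content was 58.3% for members and 56.3% for all genes. In Tfh cells the median difference of the 9 members with an NRF1 core was 0.05, against 0.09 for the 52 members tested that lacked it, and for the 5 with an ETS core it was 0.11, against 0.09 for the other 56. A match describes the letters and does not show that a factor binds there.

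In Th1 cells the same comparison of Rictor-null with WT called no member by limma, where 10.5% of all genes were called. At an unadjusted p under 0.05 there were 2 members (2.63%), against 24.8% of all genes. After quantile normalization 1 member was called, Cox7c, which fell, against 669 rises and 537 falls over all genes. Members sat on 0: 38 of 76 were above it, with a median of -0.00, and the 95% interval of 70 lay within 1.25-fold. Both Rictor-null arrays lay above both WT arrays for 6 members and below them for 20, against 28.3% and 27.7% of all genes. The direction of this median depended on the scaling, since it was -0.06 with 14 members above 0 after quantile normalization and 0.02 with 44 above 0 after centring arrays on their medians. The median of all genes was -0.03 and 0.02 in those fits, and the share of rises among the called genes was 71.8% without scaling and 55.5% after quantile normalization.

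Within the Th1 comparison complex IV had 2 of 13 members above 0 and a median of -0.04, while complexes I, II, III and V had medians between -0.01 and 0.02. That count was 1 after quantile normalization and 5 after centring arrays on their medians. Cox7c gave the smallest p among complex IV genes, with a difference of -0.17 ± 0.059 (adjusted p = 0.101). Atp5c1, the gamma subunit that forms the rotor of ATP synthase, had 2984 and 3183 in Rictor-null Th1 cells, against 3520 and 3487 in WT Th1 cells. Its groups did not overlap, but it did not pass (-0.18 ± 0.065, adjusted p = 0.106). Ndufv3 gave -0.12 (adjusted p = 0.273), Sdhc -0.08 (adjusted p = 0.539) and Uqcrc2 0.21 (adjusted p = 0.341). The other complex II genes gave differences between -0.02 and 0.02, whose signs changed between fits, with Sdhb at 1071 and 980 in Rictor-null Th1 cells, against 1022 and 1021 in WT Th1 cells.

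Averaged over both cell types, Cox7c fell by 0.21 ± 0.042 on the log2 scale (adjusted p = 0.00669) and each of the 4 Rictor-null arrays lay below each of the 4 WT arrays. Uqcr11 rose by 0.15 ± 0.047 (adjusted p = 0.0481). These were 2 of 76 members, where 17.1% of all genes were called (13.1% rose and 3.92% fell). The call of Cox7c held in 20 of 20 alternatives, with adjusted p from 0.000844 to 0.0383, and that of Uqcr11 in 7 of 20. The Uqcr11 call ended without any 1 of the 4 WT arrays, Rictor-null Tfh replicate 2 or Rictor-null Th1 replicate 1 (adjusted p between 0.0827 and 0.167). The next largest mean differences did not pass: Uqcrc1 gave 0.13 and Ndufs8 0.12, and Cox8c, a form known from testis, gave -0.12 and Sdhc -0.10. The median of members was 0.03, with 47 of 76 above 0, and turned to -0.01 with 32 above 0 after quantile normalization. That scaling called 0 rises and 3 falls among members (Cox7c, Cox8c and Sdhc), against 990 rises and 841 falls over all genes. It moved the share of rises among called genes to 54.1%, against 77.0% without it. The 95% interval of all 76 members lay within 1.25-fold, as it did for 89.3% of all genes.

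The genotype difference, taken with its sign, was higher in Tfh than in Th1 cells for 57 of 76 members (75.0%, against 59.6% of all genes). The median of this gap was 0.06, against 0.04 for all genes. Higher here means more positive, and not larger in size. Tested as an interaction, no member passed by limma, and 1.22% of all genes were called. At an unadjusted p under 0.05 there were 11 members (14.5%), against 19.1% of all genes. Ndufs8 (0.30 ± 0.089, adjusted p = 0.132) and Atp5c1 (0.30 ± 0.092, adjusted p = 0.137) had the smallest p-values. Complex II had a median of 0.18 and complex I of 0.09, and complex III of 0.01. Fits without 1 array leave its group with 1, so their counts of interaction calls are not given. With no member passing in the full fit, a member called in Tfh and not in Th1 cells was not shown to differ between them.

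Tfh cells were also set against Th1 cells within each genotype, to see whether the memory lineages differ in these genes. No member passed by limma in Rictor-null cells where 9.67% of all genes were called, or in WT cells, where 14.7% were. At an unadjusted p under 0.05 there were 7 members (9.21%) in Rictor-null cells, against 24.4% of all genes, and 2 (2.63%) in WT cells, against 33.7% of all genes. In Rictor-null cells 50 of 76 members were higher in Tfh cells, while 45.5% of all genes were, with a median of 0.05 against -0.01 for all genes. In WT cells 22 were higher in Tfh cells, against 34.3% of all genes, with a median of -0.03 against -0.06 for all genes. Both comparisons kept the sign of the members' median under quantile normalization and array median centring. In WT cells quantile normalization gave a median of -0.03 for members and -0.02 for all genes. Quantile normalization gave a share of rises among called genes of 44.5% in Rictor-null cells, where it was 33.8% without it, and of 40.2% in WT cells, where it was 20.9%. These comparisons use the same arrays as the genotype comparisons and are not independent of them.

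The members with the smallest p in these comparisons were Ndufs8 in Rictor-null cells (0.19, adjusted p = 0.0935) and Ndufv1 in WT cells (-0.18, adjusted p = 0.0672). In Rictor-null cells Sdhd gave 0.13, Uqcr11 0.07, Cox7c -0.17 and Atp5c1 0.17, none passing. In WT cells Uqcr11 gave -0.16, Sdhb -0.12, Atp5c1 -0.14 and Cox4i2, a form of subunit 4 known to be induced by low oxygen, 0.11, none passing. Here too a fit without 1 array leaves its group with 1, and its count of calls is not compared.

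Averaged over both genotypes 1 member was called, Cox7c, which was lower in Tfh cells by 0.13 ± 0.042 (-0.13, adjusted p = 0.0493), where 20.1% of all genes were called and 15.4% fell. This call held in 6 of 20 alternatives and ended without any single array except Rictor-null Tfh replicate 1 (adjusted p between 0.0620 and 0.149). The largest positive means were those of Cox8c (0.13), Ndufa12 (0.13) and Cox4i2 (0.11, at signals near the array medians). The largest negative ones after Cox7c were those of Ndufa10 (-0.08) and Ndufa3 (-0.07). None of these passed. The median of members was 0.00, with 39 of 76 above 0, against -0.03 for all genes, and it turned to -0.02 with 29 above 0 after centring arrays on their medians. After quantile normalization it was 0.02 with 55 above 0, and the call turned to 1 rise, Cox8c, and no fall, with Cox7c at -0.09 (adjusted p = 0.139). Over all genes that fit called 633 rises and 949 falls. Rises were 23.1% of the called genes without scaling and 40.0% after quantile normalization.

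Over the 4 groups, Rictor-null Tfh cells had the highest mean for 37 of 76 members (48.7%), against 21.3% of all genes. WT Tfh cells had the lowest mean for 36 members (47.4%), close to the 44.0% of all genes. WT Tfh and Rictor-null Th1 cells were highest for 11 members each and WT Th1 cells for 17. These orders carry no test of their own. Averaged over the members of a complex and centred on each gene's mean, complex I stood at 0.04 and 0.04 on the Rictor-null Tfh arrays, -0.02 and -0.05 on the WT Tfh arrays, 0.02 and -0.04 on the Rictor-null Th1 arrays and -0.04 and 0.04 on the WT Th1 arrays. Complex II stood at -0.02 and 0.13 on the Rictor-null Tfh arrays, against -0.08 and -0.03 on the WT Tfh arrays, so that its Tfh difference lay mainly in replicate 2. Complex IV stood at -0.04 and -0.03 on the Rictor-null Th1 arrays, against 0.01 and 0.03 on the WT Th1 arrays. Over all genes tested the same average was -0.003 and 0.018 on the Rictor-null Tfh arrays and -0.040 and -0.047 on the WT Tfh arrays. For all genes it was 0.034 and 0.025 on the Rictor-null Th1 arrays and 0.008 and 0.005 on the WT Th1 arrays.

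Members varied less between groups than other genes did. The range of a member's 4 group means had a median of 0.12 and a maximum of 0.34, that of Cox7c, against a median of 0.19 over all genes. No member had a range over 0.5, while 6.14% of genes did. The spread between replicate arrays was alike, with a median SD of 0.062 for members and 0.065 for all genes. By group the median SD of members was 0.067 in Rictor-null Tfh cells, against 0.019 in WT Tfh cells, and 0.047 in Rictor-null Th1 cells and 0.037 in WT Th1 cells.

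Part of that spread was shared by a small set of members. On the brightest probe set, 6 of 76 members were more than 0.2 lower both in Rictor-null Tfh replicate 2 than in replicate 1 and in WT Th1 replicate 1 than in replicate 2, or 7.89%, against 2.70% of all genes, and none were more than 0.2 higher on both. They were Ndufc2 and Ndufb5 of complex I, Uqcrc2 of complex III, Cox5a of complex IV and Atp5pb and Atp5h of complex V, picked after their values were seen, so no test is given. Ndufc2 had 1998 and 1435 in Rictor-null Tfh cells, against 2074 and 1928 in WT Tfh cells, 1983 and 1903 in Rictor-null Th1 cells, and 1593 and 1922 in WT Th1 cells. The low array differed from its replicate by -0.47 in Rictor-null Tfh cells and by -0.27 in WT Th1 cells.

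Other probe sets of these genes mostly did not show it. For Ndufc2 the others differed by 0.10 and 0.07 between the Rictor-null Tfh arrays and by -0.04 and 0.01 between the WT Th1 arrays. For Ndufb5 the brightest gave -0.48 and -0.24 and the other 0.13 and 0.06. For Uqcrc2 the brightest gave -0.45 and -0.29 and the other 0.12 and 0.03. Cox5a was the exception in part, since its dimmest probe set fell with the brightest (-0.53 and -0.23) and its middle one did not (0.09 and -0.05). For each of the 6 genes at least 1 other probe set gave a Tfh genotype difference of the opposite sign, which for Ndufc2 was -0.24 on the brightest and 0.17 and 0.13 on the others, and none of these values passed. Over the 76 members the paired drops had a Pearson r of 0.74, and over all genes of 0.52, as a description across genes that share these 4 arrays. Without both of the low arrays no member was called in Tfh cells, with 54 of 76 above 0 and a median of 0.05.

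**Figure D4:**
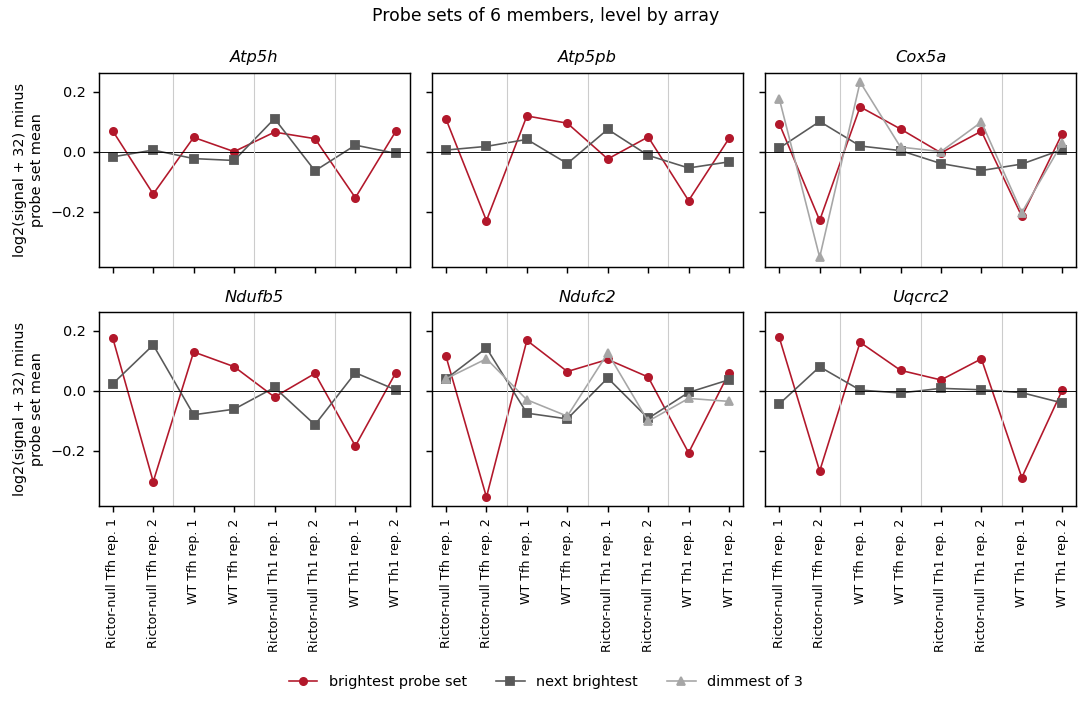
Level of each probe set of 6 members on the 8 arrays, as log2(signal + 32) minus the probe set's mean. The brightest probe set of each gene (red circles) dips on Rictor-null Tfh replicate 2 and on WT Th1 replicate 1, while the next brightest (dark squares) does not, and the dimmest of Cox5a (grey triangles) dips too.

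More generally, 45 members had 74 other probe sets past the filter. In Tfh cells 51 of these had the sign of the brightest, and 4 rose and none fell in a fit over all 23725 probe sets, which called 10.1% of them. Of 6 probe sets of Ndufs8, 5 were positive, of which the brightest (0.27) and 2 others (0.28 and 0.29) rose, and the dimmest gave -0.18. Its brightest probe set is of the type named _x_at, which can bind related sequences. The second probe set of Ndufb7 gave 0.24 (adjusted p = 0.0948), and in that wider fit its brightest did not pass either (adjusted p = 0.0623). The second probe set of Cox7c gave -0.18 in Tfh cells (adjusted p = 0.131) but 0.01 in Th1 cells, and Uqcr11 had only 1. In Th1 cells 38 of 74 had the sign of the brightest, and a dim probe set of Ndufb9, with a mean signal of 44.2, fell by 0.26 (adjusted p = 0.0278) while the brightest gave 0.01. For the mean of Tfh minus Th1, dim probe sets of Atp5c1 (-0.17) and Cox5b (-0.18) fell where the brightest gave 0.01 for each. In complex II a dim probe set of Sdha rose in Tfh cells (0.28, adjusted p = 0.0238).

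The 5 members below the filter were Cox7a1, Cox7b2, Cox6b2, Cox8b and Ndufb4. The Cox genes among them are forms known from muscle, testis, heart or fat. Their signals were between 4.83 and 24.7 on all arrays, under the array medians. Of 8 such tissue-restricted forms within the pattern, 4 were tested. In either genotype comparison 0 were called, against 13.6% of all genes in Tfh and 10.5% in Th1 cells. At an unadjusted p under 0.05 there were also 0, against 30.3% and 24.8% of all genes. With 4 genes, a count of 0 cannot be told apart from these shares. Ndufb4 was between 24.8 and 34.9 on its single-symbol probe set and was also measured by probe sets annotated to several genes, which are not used here.

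Genes outside the pattern build or serve the complexes. Of 43 assembly factors tested, 4 rose in Rictor-null Tfh cells (9.30%), against 13.6% of all genes called, with 38 above 0 (88.4%, against 60.7% of all genes) and a median of 0.10. In Th1 cells 2 rose and 1 fell (6.98%), against 10.5% of all genes called, with 15 above 0 (34.9%, against 5606 of the 11217 genes) and a median of -0.05. Sdhaf1, which helps to insert the iron-sulfur clusters of Sdhb, had 636 and 655 in Rictor-null Tfh cells, against 508 and 488 in WT Tfh cells, and 738 and 680 in Rictor-null Th1 cells, against 578 and 569 in WT Th1 cells. It rose in both, by 0.35 ± 0.060 (adjusted p = 0.00335) and by 0.29 ± 0.060 (adjusted p = 0.0109). In the mean of both cell types Sdhaf1 rose by 0.32 (adjusted p = 0.000356). That mean was 0.25 to 0.35 with each array left out in turn and after quantile normalization. Coa7 (0.24) and Cox19 (0.24), which act on complex IV, and Sdhaf4 (0.20), which acts on Sdha, also rose in Tfh cells. Acad9, a complex I assembly factor, rose in Th1 cells by 0.32 (adjusted p = 0.0167) and Coa3, of complex IV, fell there by 0.21. The call of Sdhaf1 ended in Tfh cells without WT Tfh replicate 2 (adjusted p = 0.0537) and in Th1 cells without the first Rictor-null array or either WT Th1 array (0.105, 0.0563 and 0.0606), and that of Coa7 without either WT Tfh array (0.178 and 0.0814). The same 3 Th1 arrays each ended that of Acad9 (0.152, 0.0653 and 0.0847), whose dimmer probe set gave -0.01. The calls of Sdhaf4 and Cox19 held in 1 of 9 alternatives (each array left out, and quantile normalization), and that of Coa3 in 3.

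Of 24 carriers, coenzyme Q genes and other subunits outside the pattern, 2 rose in Rictor-null Tfh cells and 2 in Rictor-null Th1 cells, and none fell (8.33% in each, against 13.6% and 10.5% of all genes called). Coq10b, a protein that binds coenzyme Q, had 696 and 685 in Rictor-null Tfh cells, against 549 and 535 in WT Tfh cells, and 712 and 743 in Rictor-null Th1 cells, against 594 and 525 in WT Th1 cells. Rictor-null arrays were above WT arrays in both cell types, and both comparisons passed (0.33, adjusted p = 0.00877, and 0.36, adjusted p = 0.00518). Coq8a, which acts in coenzyme Q synthesis, rose in Tfh cells by 0.35 (adjusted p = 0.00395). Atpif1, the inhibitor protein of ATP synthase, had 382 and 380 in Rictor-null Th1 cells, against 257 and 287 in WT Th1 cells, and rose by 0.44 ± 0.090 (adjusted p = 0.00928). In the mean of both cell types 4 of the 24 were called (16.7%, against 17.1% of all genes). Coq10b rose by 0.35 (adjusted p = 0.00041), Coq8a by 0.28 (adjusted p = 0.00107) and Atpif1 by 0.33 (adjusted p = 0.00488). With each array left out, and after quantile normalization, these means were 0.28 to 0.39, 0.24 to 0.30 and 0.26 to 0.40. Slc25a4, a carrier that swaps ADP for ATP, rose in the mean of both cell types by 0.17 (adjusted p = 0.0147), a call that ended without Rictor-null Th1 replicate 1 (0.0600), without WT Tfh replicate 2 (0.0844) and after quantile normalization (0.0704). The Coq10b call ended without either WT Tfh array in Tfh cells (adjusted p = 0.0633 and 0.0910) and without Rictor-null Th1 replicate 2 in Th1 cells (0.0526), and the Coq8a call without WT Tfh replicate 2 (0.0660). The Atpif1 call ended without Rictor-null Th1 replicate 1, Rictor-null Th1 replicate 2 or WT Th1 replicate 1 (0.0762, 0.0635 and 0.0840), and its dimmer probe set gave 0.05.

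Of 23 genes of mitochondrial DNA expression and its nuclear regulators, 1 rose in each cell type and none fell (4.35% in each, against the same 13.6% and 10.5% of all genes). It was Gabpb1, a subunit of the GABP factor that binds ETS cores. Gabpb1 had 109 and 115 in Rictor-null Tfh cells, against 71.2 and 71.4 in WT Tfh cells, and 139 and 131 in Rictor-null Th1 cells, against 96.9 and 85.6 in WT Th1 cells. It rose by 0.48 ± 0.063 (adjusted p = 0.000674) and by 0.44 ± 0.063 (adjusted p = 0.0011), and both calls held without each array in turn and after quantile normalization. Its dimmer probe set, with a mean signal of 47.8, gave 0.11 (adjusted p = 0.394) and 0.13 (adjusted p = 0.345). For Tfh minus Th1, 3 of the 23 were called in Rictor-null cells (13.0%, against 9.67% of all genes). In WT cells 2 were (8.70%, against 14.7%). Mterf1a and Pprc1 were lower in Tfh cells in the Rictor-null comparison, and Gabpb1 in the WT one. Polrmt, the mitochondrial RNA polymerase, was lower in Tfh than in Th1 cells in both genotypes, by 0.35 in Rictor-null cells (-0.35, adjusted p = 0.00476) and by 0.32 in WT cells (-0.32, adjusted p = 0.00971). In WT cells that call ended without WT Tfh replicate 1, WT Tfh replicate 2 or WT Th1 replicate 1 (adjusted p between 0.0520 and 0.115). Of 18 tricarboxylic acid cycle genes 0 were called by limma in either genotype comparison, with 3 in Tfh (16.7%) and 2 in Th1 cells (11.1%) at an unadjusted p under 0.05, against 30.3% and 24.8% of all genes. For Tfh minus Th1, 2 of the 18 were called in Rictor-null cells (11.1%, against 9.67% of all genes) and 0 in WT cells (against 14.7%). Suclg1, a subunit of succinyl-CoA ligase, was higher in Rictor-null Tfh than in Rictor-null Th1 cells (0.37, adjusted p = 0.0023), and Idh2 was lower (-0.22, adjusted p = 0.0445). The Idh2 call held in 2 of 9 alternatives (adjusted p up to 0.177), and ended after quantile normalization and without any 1 of the 4 Rictor-null or the 2 WT Tfh arrays. One mitochondrially encoded subunit was measured, ND5 of complex I, with 5973 and 4987 in Rictor-null Tfh cells, against 6698 and 6306 in WT Tfh cells. It did not pass (-0.25 ± 0.083, adjusted p = 0.072).

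**Figure D5:**
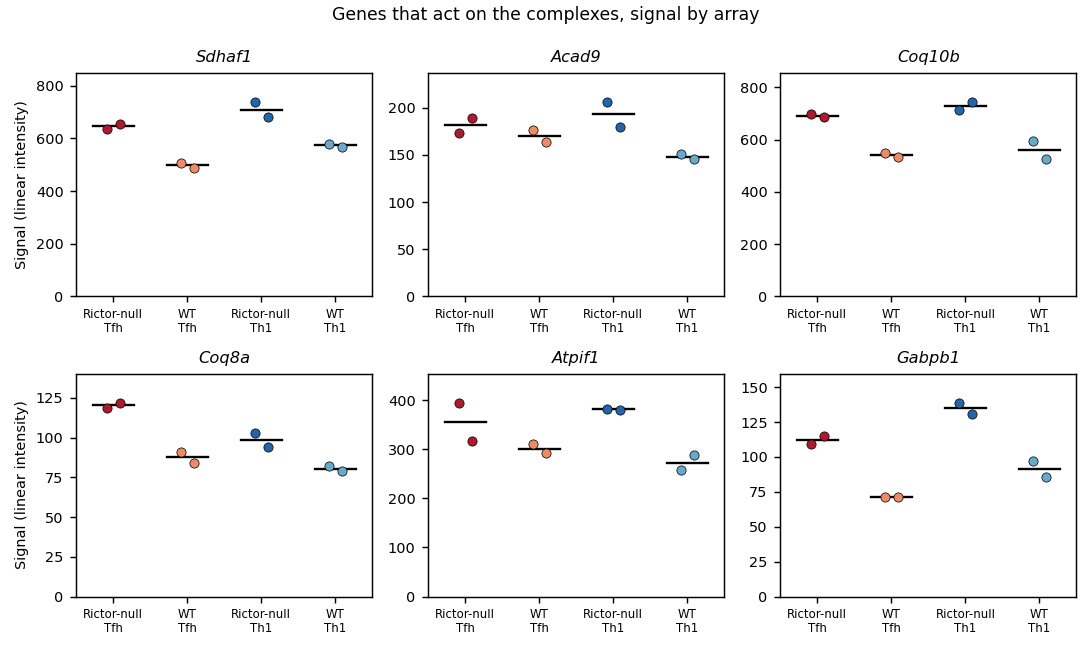
Signal on each array for 6 genes outside the symbol pattern, on linear axes that start at 0, with a bar at each group's mean. For Gabpb1, Sdhaf1 and Coq10b both Rictor-null arrays lie above both WT arrays in Tfh and in Th1 cells.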

How the data were processed

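The authors deposited 1 table of probe set signals for the 8 arrays, as linear intensity values for 45037 probe sets of the Mouse Genome 430 2.0 array. The submitters' processing notes name MAS5 and RMA without version or role, and the sources used here state neither the scaling between arrays nor the background correction. Detection calls were not used here. With arrays, the number of arrays limits the precision.

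Probe sets above their array's median on at least 2 of 8 arrays were kept (23725). Genes were named from GEO's platform annotation, all 81 members matched RefSeq by gene ID, and each gene took its brightest probe set by mean signal. Signals plus a pseudocount of 32 were taken to log2, and limma 3.58.1 (R 4.3.3) fitted 1 mean per group to the 8 arrays together (lmFit, contrasts, eBayes; 4 residual and 6.7 prior degrees of freedom), with Benjamini-Hochberg adjustment over 11217 genes. Fold changes are of the signal plus 32 and understate those of dim genes. An exact permutation test of 2 arrays against 2 cannot give a two-sided p under 0.333, so none was run. The labels call the arrays biological replicates of pooled mice, and p-values measure the spread between such pools. The method was tested on simulated data with independent noise for each gene and array. That simulation held no deviation shared by genes of an array, so it cannot show how the fit handles one.

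Named genes were members called in a contrast, the member of each complex with the smallest p in the 4 within-group contrasts, the 3 largest effects each way in the mean contrasts, all of complex II, members below the filter or with disagreeing probe sets, and up to 4 called genes of each related list. The members and gene lists were chosen with earlier results of these data known. Promoters and figures were handled in Python 3.11.15 with pandas 2.3.3 and matplotlib 3.10.9. Alternatives covered the scaling, the pseudocount, the filter, the probe set per gene, the fit, the replicate number as a block and each array left out.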

Additional observations from a re-analysis of the deposited data

How the results depend on the processing

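Of 144 counts of members called, 97 stayed within 1.5 times the count reported, and of 144 medians 133 moved by less than the spread between replicates. The sign of the median changed in 14 of them: 6 for the genotype comparison in Th1 cells, 1 for the genotype mean and 7 for the cell type mean. Of 1012 values of named members 871 kept their direction and side of the threshold, 33 came to pass it, 58 ceased to pass it and 50 changed sign, of which 46 passed in neither fit.

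The other 4 came from the probe set with the largest variance: Ndufb9 in Th1 cells (-0.26) and in the genotype mean (-0.19), and Atp5c1 (-0.17) and Cox5b (-0.18) in the cell type mean. That probe set also turned Sdhc in Tfh cells (0.012), in Th1 cells (0.11) and in the genotype mean (0.063), and Sdhd in Th1 cells (0.23). For Tfh minus Th1 it turned Atp5c1 (-0.18) and Sdhd (-0.072) in Rictor-null cells, Sdhc (-0.073) and Sdhd (0.14) in WT cells and Ndufa12 in their mean (-0.24). The mean of all probe sets turned Sdhc (0.018), Sdhd (0.10) and Ndufb9 (-0.068) in Th1 cells and Ndufb9 in the genotype mean (-0.0032). It also turned Atp5c1 for Tfh minus Th1 in Rictor-null cells (-0.0068), Sdhc (-0.025) and Sdhd (0.024) in WT cells, and Atp5c1 (-0.076) and Cox5b (-0.018) in their mean. Quantile normalization turned Sdha (-0.046), Sdhb (-0.059) and Ndufb9 (-0.062) in Th1 cells, Sdhc for Tfh minus Th1 in Rictor-null cells (0.0034) and Cox5b in the cell type mean (-0.0048). Array median centring turned Sdhd in Th1 cells (0.0029), and Atp5c1 (-0.0045) and Cox5b (-0.0099) in the cell type mean.

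Leaving out arrays gave values on both sides of 0 in Th1 cells for Sdha (-0.017 to 0.047), Sdhb (-0.058 to 0.066), Sdhd (-0.081 to 0.038) and Ndufb9 (-0.061 to 0.072). It did so for Tfh minus Th1 for Sdha (-0.0092 to 0.14), Sdhb (-0.011 to 0.19) and Sdhc (-0.094 to 0.030) in Rictor-null cells, for Sdhc (-0.056 to 0.10) in WT cells, and in their mean for Ndufa10 (-0.16 to 0.0027), Atp5c1 (-0.022 to 0.052) and Cox5b (-0.030 to 0.049).

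Leaving out 1 array in turn gave 0 to 21 members called for Rictor-null minus WT in Tfh cells, 0 to 1 in Th1 cells and 1 to 6 for the mean of both, then 0 to 8 for Tfh minus Th1 in Rictor-null cells, 0 to 1 in WT cells and 0 to 3 for their mean, and 0 to 17 for the interaction. The medians in the same fits were 0.047 to 0.095, -0.038 to 0.021, 0.013 to 0.044, 0.021 to 0.077, -0.052 to -0.023, -0.0089 to 0.020 and 0.040 to 0.11, in the same order. Leaving out both arrays that dip together gave 0 members in Tfh cells, 1 for the genotype mean and 0 for the cell type mean.

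Quantile normalization gave 2 members in Tfh cells, 1 in Th1 cells and 1 for Tfh minus Th1 in Rictor-null cells. For the genotype mean it gave 0 rises and 3 falls and for the cell type mean 1 rise and 0 falls, where 1 rise and 1 fall, and 0 rises and 1 fall, were reported. It came with medians of 0.031 in Tfh cells, -0.061 in Th1 cells, -0.014 for the genotype mean, 0.073 for Tfh minus Th1 in Rictor-null cells and 0.10 for the interaction. The genotype mean had 1 call at a pseudocount of 1 and with a variance trend, 4 with the mean of all probe sets and 6 with the most variable probe set. The cell type mean had 2 at a pseudocount of 64, 3 with the mean of all probe sets, 4 with the most variable and 0 with a trend or with array weights. Tfh minus Th1 in Rictor-null cells had 1 with the mean of all probe sets and a median of 0.016 with the most variable. In WT cells it had 1 with array median centring and 2 with the most variable probe set, with array weights or with only the groups compared. In Th1 cells the genotype comparison had 1 with the most variable, and in Tfh cells it had 1 with only the groups compared. With a filter of all 8 arrays Cox4i2 was not tested. The causes were not tested, beyond what leaving out arrays shows.

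The main fit did not use replicate numbers to pair the groups. Deviations of same-numbered arrays correlated between -0.52 and 0.28, which cannot show whether these arrays were handled together. With the replicate number as a block, 3 members were called in Tfh cells, 1 for the genotype mean and 0 for the cell type mean.

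With 2 arrays per group and changes under 1.25-fold, a member that missed the threshold was not shown to be unchanged. Probe sets near the array median say little about levels, and detection could not be judged.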
